A study of Homo sapiens with 2 samples.

Results

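The small nucleolar RNA (snoRNA) host genes examined here were 10 long noncoding genes, SNHG1, SNHG5, SNHG6, SNHG7, SNHG8, SNHG12, SNHG15, SNHG16, GAS5 and ZFAS1. They were taken by symbol from a given list that was drawn up with earlier results of these data known. No threshold on a measured value defined it, and all 10 were matched among the 57736 genes of the tables. The cells were HEK293T, a human embryonic kidney line with the SV40 large T antigen, labelled as wild type. By the labels, they were heated for 20 min at 43 °C and kept for 6 h at 37 °C before lysis with Trizol. The authors' paper gives a longer time at 43 °C. The series has 1 group of 2 libraries, replicate 1 and replicate 2, from separately lysed cells, and poly(A)+ RNA was sequenced in both with 50 bp reads. The values describe recovered cells and how far 2 libraries of them lay apart. They hold no effect of the heat itself, because untreated cells were not analysed here.

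Replicate 1 held 22529828 expected counts (reads shared among genes by the quantifier) and replicate 2 held 26890199. Of the kidney epithelial markers, KRT18 was at 52.6 ± 7.78 TPM (SD, n = 2; TPM is the share of transcripts scaled to length and to a fixed total), while AQP2 and UMOD of the mature tubule had 0 counts. The 9 genes of that list summed to 87.9 TPM in replicate 1 and 72.1 TPM in replicate 2, and 4 of them were detected. Neuronal markers summed to 450.01 and 432 TPM, most of it from UCHL1, fibroblast markers to 28.0 and 25.5 TPM and leukocyte markers to 6.59 and 6.05 TPM, with PTPRC and CD3E at 0 counts. In bulk RNA, a gene used by fewer cells and a gene with less RNA per cell cannot be told apart.

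A host gene of this kind is transcribed and spliced like a messenger RNA gene, but its purpose lies largely in its introns, which are trimmed to snoRNAs. Box C/D snoRNAs guide methylation of ribosomal RNA and box H/ACA snoRNAs guide its conversion to pseudouridine, both in the nucleolus. The spliced exons hold no long reading frame, engage ribosomes and are commonly degraded by nonsense-mediated decay. Many such genes start with a C and a run of pyrimidines, the terminal oligopyrimidine (TOP) start that ribosomal protein genes also have.

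In the RefSeq annotation, 37 snoRNA genes lay within the spans of the 10 hosts, of which 28 had names of the box C/D class (SNORD) and 8 of the box H/ACA class (SNORA). GAS5 held 11 of them, SNHG1 held 9 and SNHG12 held 4. SNHG16 and ZFAS1 held 3 each, with the SNORD1 and SNORD12 families. SNHG5 held SNORD50A and SNORD50B, and SNHG7 held SNORA17A and SNORA17B. SNHG6, SNHG8 and SNHG15 held 1 each, SNORD87, SNORA24 and SNORA9. Of these 37 genes, 6 could be placed inside a host on its strand among the identifiers of the deposited tables. The others were not matched by coordinates, and no values are given for them.

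The 6 snoRNAs are shown because their reads are set against those of their hosts further on. The sequences are the GENCODE transcripts of GRCh37, 5′ to 3′. Capitals mark the box C motif, searched as ATGATGA or GTGATGA in the first 25 bases, and the last CTGA, the box D motif, within the last 20 bases.
SNORD12 (chr20:47897220-47897309, plus strand): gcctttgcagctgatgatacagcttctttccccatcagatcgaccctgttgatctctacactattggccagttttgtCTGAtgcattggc
SNORD12B (chr20:47896856-47896946, plus strand): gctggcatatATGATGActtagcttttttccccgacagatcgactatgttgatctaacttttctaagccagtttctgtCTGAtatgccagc
SNORD12C (chr20:47895477-47895565, plus strand): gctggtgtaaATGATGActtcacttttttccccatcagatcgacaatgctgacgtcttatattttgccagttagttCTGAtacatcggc
SNORD1B (chr17:74557191-74557274, plus strand): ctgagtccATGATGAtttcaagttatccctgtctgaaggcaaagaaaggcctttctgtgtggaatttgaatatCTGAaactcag
SNORD78 (chr1:173834760-173834824, minus strand): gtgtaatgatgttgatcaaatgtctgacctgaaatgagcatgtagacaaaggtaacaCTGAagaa
SNORD99 (chr1:28905261-28905334, minus strand): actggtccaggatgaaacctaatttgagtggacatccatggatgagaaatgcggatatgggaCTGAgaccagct
The box D motif was found in all 6 and these letters of box C in 3 of them, SNORD12B, SNORD12C and SNORD1B. SNORD12, SNORD12B and SNORD12C all lie in ZFAS1 and were 90, 91 and 89 bases long.

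The annotated starts of the hosts are shown because the TOP start is the feature that such genes are known to share. The RefSeq table of promoters (GRCh38.p14) held windows for 8 of the 10 hosts, all but SNHG6 and SNHG15, with 1 start per gene. Each line below runs from 35 bases before the start to 25 bases from it onward, on the strand of the gene, 5′ to 3′. Capitals mark a TOP-like run, a C followed by at least 4 more pyrimidines that begins within 10 bases of the start, and TATAA where it begins 40 to 20 bases before the start.
SNHG12 (chr1:28581849-28581908, minus strand): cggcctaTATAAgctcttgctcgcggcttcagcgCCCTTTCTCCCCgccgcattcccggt
SNHG8 (chr4:118278727-118278786, plus strand): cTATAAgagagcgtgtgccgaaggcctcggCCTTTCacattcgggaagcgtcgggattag
SNHG5 (chr6:85678709-85678768, minus strand): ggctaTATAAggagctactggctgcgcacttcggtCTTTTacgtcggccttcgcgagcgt
SNHG7 (chr9:136728160-136728219, minus strand): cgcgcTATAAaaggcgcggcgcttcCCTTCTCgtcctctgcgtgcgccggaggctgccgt
ZFAS1 (chr20:49278607-49278666, plus strand): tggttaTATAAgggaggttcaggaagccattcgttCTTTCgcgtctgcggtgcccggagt
SNHG16 (chr17:76557729-76557788, plus strand): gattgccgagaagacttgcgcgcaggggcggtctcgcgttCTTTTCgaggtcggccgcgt
SNHG1 (chr11:62855861-62855920, minus strand): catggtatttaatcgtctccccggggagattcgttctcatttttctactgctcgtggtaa
GAS5 (chr1:173869021-173869080, minus strand): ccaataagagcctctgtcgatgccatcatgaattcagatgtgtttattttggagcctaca

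A TOP-like run was found in 6 of the 8 windows, against 33.5% of the 35116 promoters in the table. In SNHG5 and ZFAS1 it began on the annotated start itself, and in SNHG12 it was the longest, at 12 bases. In SNHG7 the marked letters are the end of a pyrimidine run that begins before the 10-base limit, and another match, CCTCT, begins 1 base before the start and is not marked. SNHG1 and GAS5 had none within 10 bases, and all 8 windows had one within 25 bases, where 56.4% of all promoters did. These counts hold for the RefSeq start of each gene. Whether it is the start of the isoforms counted here was not tested, for GAS5 or the others. Among the protein-coding snoRNA hosts listed for context, 15 of 22 had a run within 10 bases, and 6 of 10 other long noncoding hosts did. TATAA stood between 40 and 20 bases before the start in 5 of the 8 windows, SNHG5, SNHG7, SNHG8, SNHG12 and ZFAS1, against 3.77% of all promoters and 2.01% of those of lncRNA genes. It stood there in 6 of 22 protein-coding snoRNA hosts and in 1 of 10 other long noncoding hosts. This form was chosen after the windows were seen; the longer TATAAA was in 1 of the 8, SNHG7, against 2.25% of all promoters.

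The motif of heat shock factor was also searched because of the treatment, as GAA, TTC and GAA spaced by 2 bases each, on both strands of the 300-base window. It was found in 1 of the 8 windows, that of GAS5, 190 bases before its RefSeq start, and in 0.490% of all promoters. The stretch is shown with the match in capitals.
GAS5 (chr1:173869203-173869255, minus strand): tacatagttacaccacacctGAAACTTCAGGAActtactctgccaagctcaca
CACGTG, the E-box bound by MYC, was in 1 window, SNHG7, 122 bases before the start, and in 7.26% of all promoters. These matches describe letters in the windows and are no evidence of binding.

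The level of each host was measured next. Each of the 10 genes reached 1 TPM in replicate 1 and in replicate 2, as did 26.3% of all listed genes and 10.4% of the 12805 listed lncRNA genes. Since TPM is scaled to length, its levels can be compared between genes. The mean levels ran from 21.8 to 193 TPM with a median of 77.9 TPM. The median was 3.06 TPM over the 1329 detected lncRNA genes and 18.6 TPM over the 12367 detected protein-coding genes. Together the 10 hosts held 0.0867% of TPM in replicate 1 and 0.0979% in replicate 2, and 4.83% ± 0.149 (SD, n = 2) of the TPM of lncRNA genes. They held 13962 counts in replicate 1, a share of 0.0620% (exact Clopper-Pearson 95% interval 0.0609% to 0.0630%), and 17141 in replicate 2, a share of 0.0637% (0.0628% to 0.0647%). These intervals cover counting error only.

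GAS5 (growth arrest-specific 5, ENSG00000234741) is a host of many box C/D snoRNAs whose exons are also known to bind the glucocorticoid receptor. Its listed isoforms span 173833037 to 173838020 on the minus strand of chromosome 1 in GRCh37. It was at 164 TPM in replicate 1 and 222 TPM in replicate 2, the highest of the 10 in each library. Of all lncRNA genes it ranked 8 by mean level. The credibility bounds of the quantifier were 162 to 200 TPM in replicate 1 and 211 to 261 TPM in replicate 2, and did not overlap.

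SNHG6 (ENSG00000245910; chromosome 8, 67834053 to 67838633, minus strand), the host of SNORD87, was at 157 TPM in replicate 1 and 176 TPM in replicate 2, with bounds that did not overlap (145 to 163 and 164 to 182). SNHG16 (ENSG00000163597; chromosome 17, 74553848 to 74561430, plus strand), the host of the SNORD1 family, was at 160 TPM in replicate 1 and 172 TPM in replicate 2. The levels of SNHG6 and SNHG16 overlapped between the libraries and changed order from 1 library to the other. The range of GAS5 also overlapped that of SNHG6, so these 3 genes were not separated beyond the spread of the replicates.

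SNHG1 (ENSG00000255717; chromosome 11, 62619458 to 62623386, minus strand), the host of SNORD22 and SNORD25 to SNORD31, was at 102 TPM in replicate 1 and 118 TPM in replicate 2. Both values lay below the credibility bounds given for them, 106 to 146 TPM and 120 to 155 TPM. The table lists 34 isoforms for SNHG1. Of the detected genes with at least 14 isoforms, 16.1% had a TPM outside their bounds in replicate 1, against 3.48% of those with fewer. The other 9 hosts lay inside their bounds in both libraries. Among them were GAS5 with 36 isoforms, SNHG12 with 15 and SNHG5 with 14. The part of isoform number in the values of SNHG1 was not tested.

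SNHG5 (ENSG00000203875; chromosome 6, 86370710 to 86388466, minus strand), the host of the SNORD50 pair, was at 93.4 TPM in replicate 1 and 91.7 TPM in replicate 2. ZFAS1 (ENSG00000177410; chromosome 20, 47894715 to 47907397, plus strand), which starts beside ZNFX1, was at 55.4 TPM in replicate 1 and 71.0 TPM in replicate 2, with bounds that did not overlap (49.1 to 58.4 and 64.1 to 74.1). SNHG15 (ENSG00000232956; chromosome 7, 45022618 to 45026560, minus strand), the host of SNORA9, was at 49.5 TPM in replicate 1 and 42.4 TPM in replicate 2. Of these 3 genes, SNHG5 was the closest between the libraries and ZFAS1 the least close.

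The lowest levels belonged to 3 hosts of box H/ACA snoRNAs. SNHG8 (ENSG00000269893; chromosome 4, 119199858 to 119200982, plus strand) was at 35.2 TPM in replicate 1 and 34.9 TPM in replicate 2. SNHG7 (ENSG00000233016; chromosome 9, 139615818 to 139622636, minus strand) was at 29.2 TPM in replicate 1 and 28.6 TPM in replicate 2. SNHG12 (ENSG00000197989; chromosome 1, 28905050 to 28909495, minus strand), which also holds SNORD99, was at 20.7 TPM in replicate 1 and 22.8 TPM in replicate 2. From SNHG16 downward, each host lay above the next in both libraries with no overlap of their values, and adjacent mean levels differed by 1.19-fold to 1.51-fold. The credibility bounds of some adjacent hosts, but not all, did overlap. In replicate 1 they were 30.8 to 40.4 TPM for SNHG8 and 26.5 to 34.9 TPM for SNHG7.

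**Figure D1:**
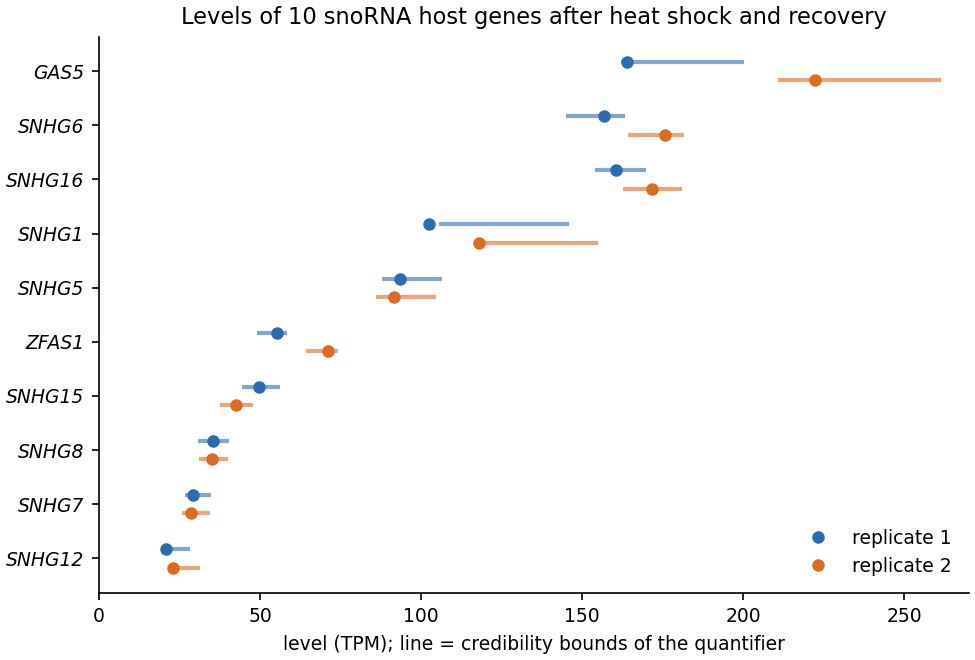
Level of each host gene in TPM (horizontal axis) in replicate 1 (blue) and replicate 2 (orange), with the credibility bounds of the quantifier as lines and genes ordered by mean level. GAS5 leads at 164 and 222 TPM, SNHG12 is lowest at 20.7 and 22.8 TPM, and the points of SNHG1 lie to the left of their lines.

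Set among all lncRNA genes, 8 of the 10 hosts were within the 50 highest by mean TPM. The ranks were 8 for GAS5, 11 for SNHG6, 12 for SNHG16, 15 for SNHG1, 17 for SNHG5, 25 for ZFAS1, 31 for SNHG15 and 41 for SNHG8. SNHG7 ranked 55 and SNHG12 ranked 79. Among all 15188 detected genes the hosts lay between percentile 61.2 for SNHG12 and 95.6 for GAS5.

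**Figure D2:**
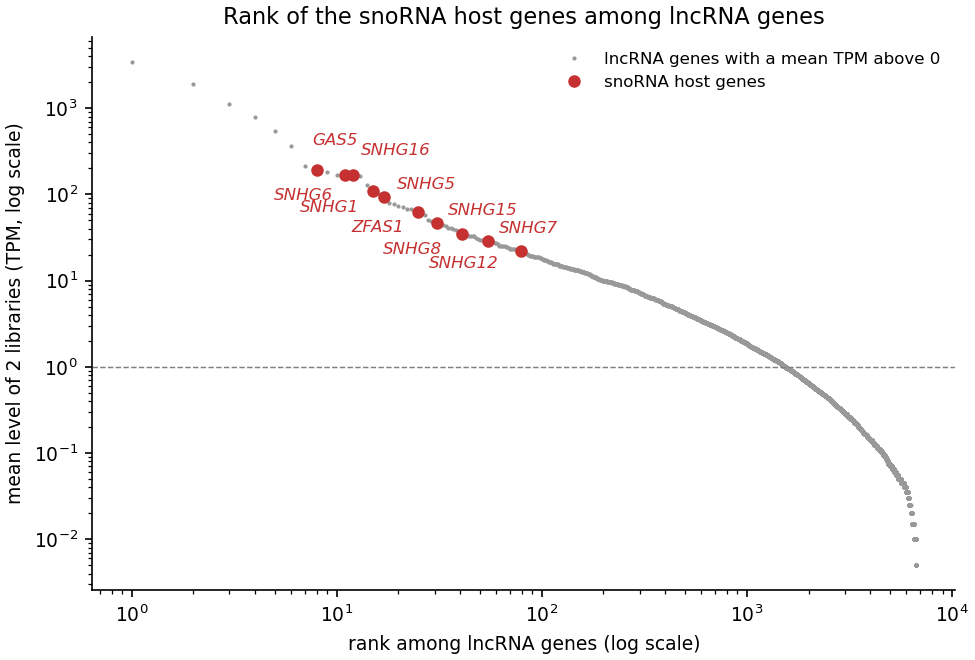
Mean TPM of 2 libraries (vertical log axis) against rank (horizontal log axis) for lncRNA genes with a mean above 0 (grey), with the 10 hosts in red and a dashed line at 1 TPM. The hosts sit between rank 8 (GAS5) and rank 79 (SNHG12), all above 20 TPM.

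The scale changed the order. In CPM (counts scaled to the library total), which do not take out length, SNHG16 led at 270.1 ± 5.27 CPM and GAS5 followed at 87.5 ± 11.1 CPM (SD, n = 2). SNHG8 was lowest at 12.5 ± 0.0415 CPM. The abundance-weighted length of SNHG16 was 2158 bases in replicate 1 and 2059 in replicate 2, whereas the other 9 hosts ranged from 487 bases (SNHG8) to 953 bases (SNHG7) in replicate 1. The tables list 145 isoforms for the 10 genes, 36 of them for GAS5 and 6 each for SNHG6, SNHG7 and SNHG8. Of these, 117 were found in the annotation used, with 1 to 13 exons each.

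Reads of 8 hosts were assigned with a posterior SD (the uncertainty of sharing reads among genes) below 1 read in both libraries. SNHG7 had the largest beside its counts, at 1.21% of 482 counts in replicate 1 and 1.24% of 534 counts in replicate 2. Its exons overlap those of DIPK1B on the other strand, which had 1417 counts in replicate 1 and 1375 in replicate 2, with posterior SDs of 5.74 and 6.59 reads. SNHG16 had a posterior SD of 7.35 reads on 6170 in replicate 1. Exons of 5 other hosts overlap those of another gene. MCMDC2, TRNAU1AP, GAS5-AS1 and ZNFX1 lie on the strand opposite to SNHG6, SNHG12, GAS5 and ZFAS1. The protein-coding gene ENSG00000271793, on the strand of SNHG5, had 133 counts in replicate 1 and 225 in replicate 2, with posterior SDs of 18.4 and 21.1 reads, while SNHG5 itself had posterior SDs of 0. Whether strand was used to assign reads is not stated in the sources at hand, so reads of a host and of a gene on its other strand may not have been separable.

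Neighbours that start head to head with a host were chosen after the data were seen. Starts on the other strand within 1000 bases were found for 4 hosts, at distances of 83 to 113 bases. SLC3A2, an amino acid transporter subunit that starts 90 bases from SNHG1, was at 63.2 TPM in replicate 1 and 58.8 TPM in replicate 2. ZNFX1, a helicase gene 113 bases from ZFAS1, was at 7.58 and 7.39 TPM, and ZBTB37, 91 bases from GAS5, was at 1.90 and 3.29 TPM. ENSG00000267546, a lncRNA gene 83 bases from SNHG16, was at 1.39 and 2.80 TPM. Each host was above its neighbour in both libraries.

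The snoRNAs inside the hosts were then examined. All 6 snoRNA genes with a row in the tables lay in introns, since no matched isoform of a host had an exon over any of them. They had 3 counts in replicate 1 and 3 in replicate 2, against 19771 counts over both libraries for their 4 hosts. In ZFAS1, SNORD12B had 1 count in each library, SNORD12 and SNORD12C had 1 count each in replicate 2 and 0 in replicate 1, and the host had 542 and 788 counts. SNORD1B had 2 counts in replicate 1 and 0 in replicate 2, against 6170 and 7163 for SNHG16. SNORD78 in GAS5 and SNORD99 in SNHG12 had 0 counts in both libraries.

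Because these RNAs are little longer than a read, 1 count weighs heavily on the TPM scale. The effective length, the number of positions at which a read can start, was 42.9 bases for SNORD12B in replicate 1 and 537 bases for ZFAS1. The single count of SNORD12B gave 1.28 TPM, beside 55.4 TPM for its host. For SNORD78, with an effective length of 16.9 bases, a count of 0 in replicate 1 allows up to 3 counts, which would be 9.73 TPM beside 164 TPM for GAS5. For SNORD99 the same limit was 6.35 TPM, beside 20.7 TPM for SNHG12. Over all 1457 snoRNA genes placed in the tables, 20.7% had any count and 2.61% had a summed count of at least 10. The RNA was selected for poly(A) tails, which mature snoRNAs lack, and its part in these low counts was not tested.

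**Figure D3:**
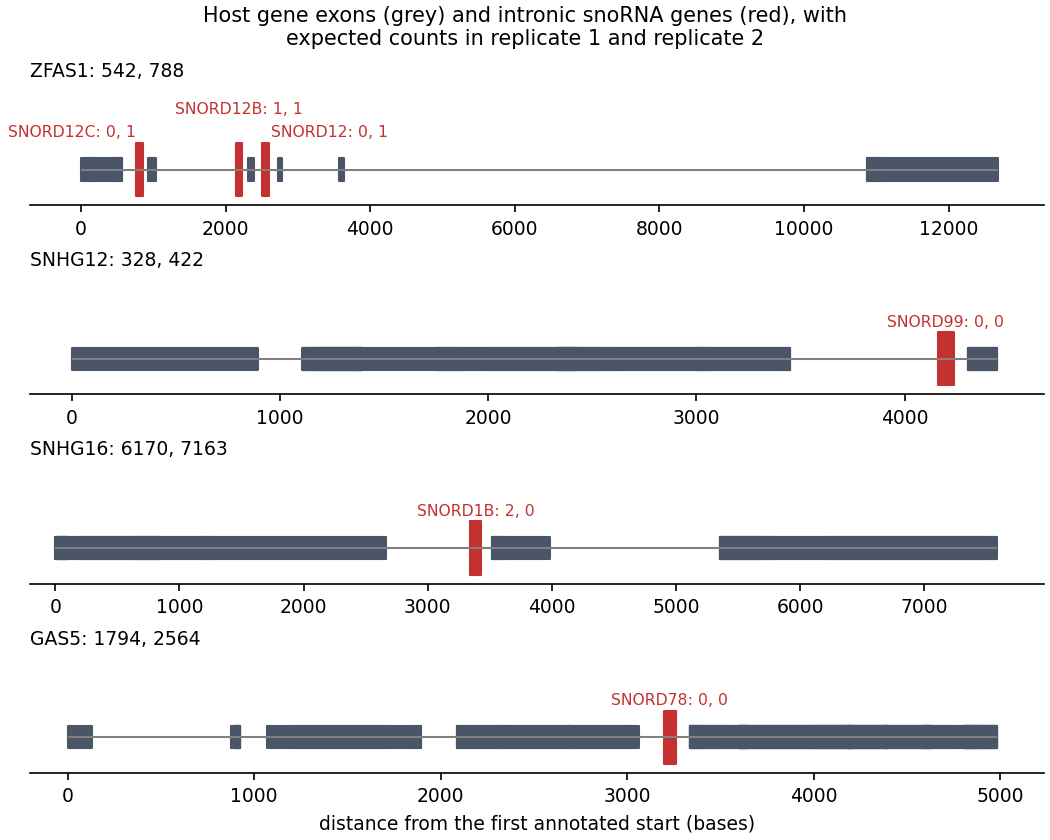
Exons of all matched isoforms of ZFAS1, SNHG12, SNHG16 and GAS5 (grey) and the 6 snoRNA genes (red) along the distance from the first annotated start in bases, with expected counts in replicate 1 and replicate 2 beside each name. Every red block lies between grey blocks and carries at most 2 counts per library, beside 328 to 7163 for the hosts.

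The spread between the replicates was tested on the counts. The exact two-sided binomial test, with library sizes scaled by TMM (trimmed mean of M-values) and Benjamini-Hochberg adjustment over all genes, compares these 2 libraries and not conditions. Of the 10 hosts, 4 passed the threshold of 0.05, against 42.2% of the 19714 genes tested and 15.2% of the 2810 lncRNA genes. Over all genes tested, 22.1% passed as higher in replicate 2 and 20.1% as higher in replicate 1. The summed counts of the hosts ran from 617 to 13333, and 66.7% passed among the genes that reached 600 summed counts, a limit chosen after the counts were seen. Ratios are given as replicate 2 over replicate 1 on the log2 scale. Their median was 0.02 in the hosts, 0.02 over all genes tested and 0.17 over the lncRNA genes tested. In direction, 5 hosts were higher in replicate 2 and 5 in replicate 1, and 0 hosts had an absolute log2 ratio of 1 or more, which 5.73% of all genes combined with a pass of the test.

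GAS5 and ZFAS1 passed on the side of replicate 2. GAS5 had 1794 counts in replicate 1 and 2564 in replicate 2, a log2 ratio of 0.23 (exact 95% interval 0.15 to 0.32), with an adjusted p of 7.51e-07 by the exact binomial test. ZFAS1, with 542 and 788 counts, had a log2 ratio of 0.26 (0.10 to 0.42) and an adjusted p of 0.00432 by the same exact test. SNHG15 and SNHG16 passed on the side of replicate 1. SNHG15 had 779 and 793 counts, a log2 ratio of -0.26 (-0.40 to -0.11) and an adjusted p of 0.00159 by the exact test. SNHG16, with the deepest counts, had a log2 ratio of only -0.07 (-0.12 to -0.02) and an adjusted p of 0.0211 by the exact test, which was 0.207 when libraries were scaled by their totals.

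The other 6 hosts did not pass, with log2 ratios from -0.13 for SNHG7 to 0.10 for SNHG1. The interval of SNHG1 ran from -0.00086 to 0.20, and by library totals its adjusted p was 0.0338 in the exact test. The widest interval was that of SNHG8, from -0.27 to 0.20, on 282 and 335 counts. A difference of that size was therefore not detectable for SNHG8 at this depth.

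On the TPM scale the ratios of some hosts differed from those of their counts. GAS5 had a log2 TPM ratio of 0.44 (pseudocount of 1), and its abundance-weighted length went from 648 bases in replicate 1 to 604 in replicate 2. SNHG16 had a log2 TPM ratio of 0.10, opposite in sign to its count ratio, with the shorter length in replicate 2 given above. SNHG15 kept its direction, at -0.22, with lengths of 911 and 948 bases. The median log2 TPM ratio over all detected genes was 0.07.

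The ratio between these libraries also moved with the GC content of transcripts over all genes, so GC content was read beside it. The hosts had a median GC content of 45.4%, against 49.3% over all genes tested and 50.3% over detected lncRNA genes. SNHG6 was lowest at 41.0%, SNHG7 highest at 60.2%, and GAS5 and SNHG1 lay at 43.4% and 43.6%. At these GC contents the median log2 ratio of all genes was 0.37 for SNHG6, -0.22 for SNHG7 and 0.18 for GAS5 and for SNHG1.

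With this GC trend removed, 3 of the 10 hosts passed the threshold, against 26.9% of all genes. ZFAS1 had a log2 ratio of 0.38 and an adjusted p of 2.43e-05, and SNHG16 had -0.16 and 9.52e-09, both by the exact test. SNHG6 changed sign, from 0.08 to -0.29, and then passed with an adjusted p of 2.20e-07 by the exact test. GAS5 no longer passed, with a log2 ratio of 0.05 and an adjusted p of 0.433, nor did SNHG15, with -0.13 and 0.175, both by the exact test. ZFAS1 was thus above and SNHG16 below 0 in both fits, while the calls of GAS5, SNHG15 and SNHG6 depended on the GC trend.

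**Figure D4:**
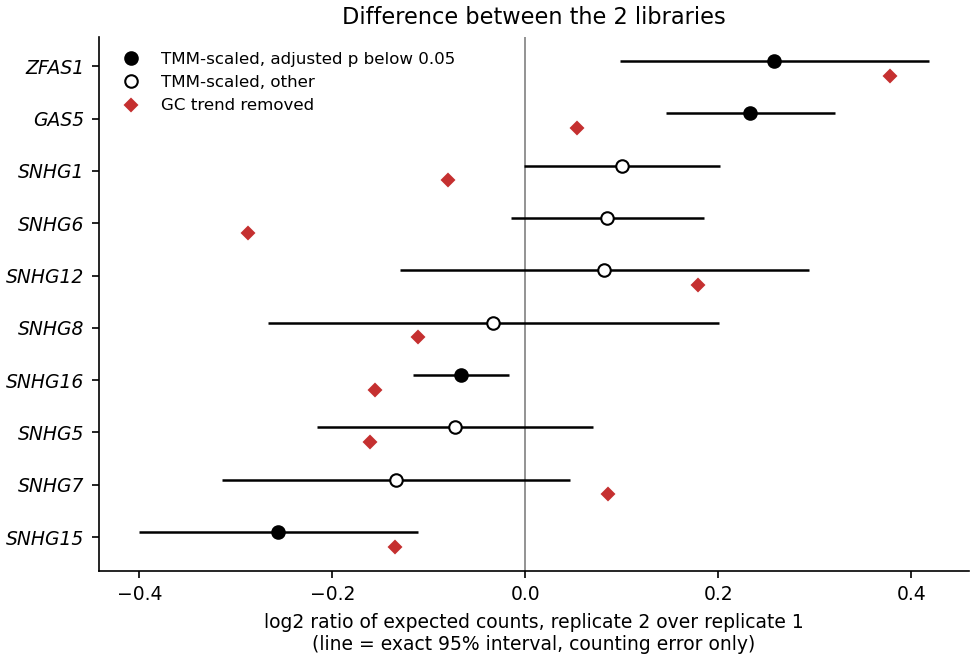
Log2 ratio of expected counts, replicate 2 over replicate 1 (horizontal axis), for each host, with the exact 95% interval of the TMM-scaled value as a line (filled circles passed the threshold) and the value with the GC trend removed as a red diamond. ZFAS1 and GAS5 lie highest at 0.26 and 0.23, SNHG15 lowest at -0.26, and the diamonds of SNHG1, SNHG6 and SNHG7 lie on the other side of 0 from their circles.

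**Figure D5:**
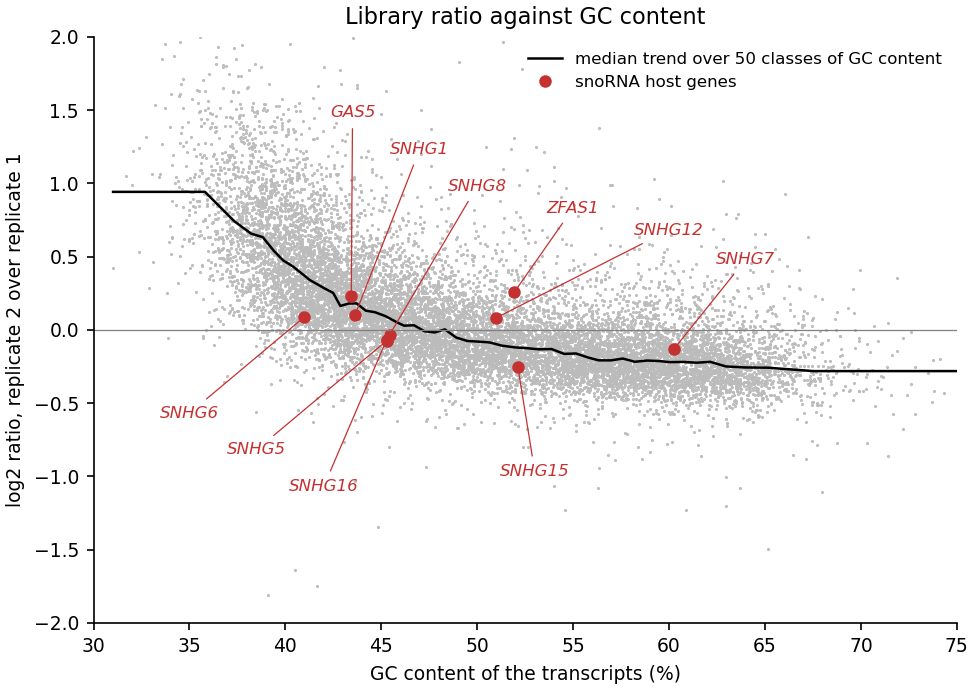
Log2 ratio of replicate 2 over replicate 1 against transcript GC content in percent for 13544 genes that reached 100 summed counts (grey; 22 lie outside the axes), with the median trend as a black line and the 10 hosts in red. SNHG6, at 41.0% GC, lies below the trend, and ZFAS1, at 51.9% GC, lies above it.

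The other long noncoding snoRNA hosts gave a comparison within the same kind of gene. Of 13 named, 12 were matched and 10 were detected, with a median of 13.2 TPM over the 12, against 77.9 TPM over the 10 hosts described here. SNHG3 was highest at 101 ± 16.2 TPM, followed by DANCR at 74.0 ± 9.23 and SNHG17 at 25.2 ± 0.969 (SD, n = 2). SNHG18 had 0 counts, and SNHG14, of the imprinted SNORD115 and SNORD116 region, was at 0.09 and 0.30 TPM. Of the 11 tested, 2 passed the exact binomial test, against 42.2% of all genes and 15.2% of the lncRNA genes tested. Both were higher in replicate 1, DANCR with a log2 ratio of -0.35 and SNHG10 with -0.67. Counts in replicate 1 and replicate 2 ran from 3.02 and 11 for SNHG14 to 3350 and 4158 for SNHG3, so the test was not equally sensitive for all. The median log2 ratio of the 11 was -0.03.

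The protein-coding snoRNA hosts, most of them genes of ribosomal proteins and translation factors, were more abundant. All 24 were detected, with a median of 1319 TPM. RPS2 was at 7213 ± 1511 TPM, EEF2 at 4985 ± 658 and RPL4 at 4206 ± 330 (SD, n = 2). Of the 24, 21 passed the exact test, 19 of them higher in replicate 1, where 66.7% of all genes that reached 600 summed counts passed in either direction. Each of the 24 reached that count. Their median log2 ratio was -0.25, and -0.22 after removal of the GC trend. The corresponding medians were 0.02 and -0.10 in the 10 hosts described here, and -0.03 and 0.05 in the other long noncoding hosts.

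The proteins that bind snoRNAs were all detected. Of the 8 core proteins, 6 passed the test, 5 of them higher in replicate 1, a count near the 66.7% of genes at such depth. Their median log2 ratio was -0.19, and -0.07 after removal of the GC trend. Fibrillarin (FBL), the box C/D methyltransferase, was at 554 ± 53.6 TPM, DKC1, the box H/ACA pseudouridine synthase, at 317 ± 25.9, and NHP2 at 276 ± 27.2 (SD, n = 2). DKC1 and NOP56 are themselves hosts and are counted in the list before as well. DKC1 did not pass, with a log2 ratio of 0.01, while NOP56 passed with -0.11, which became 0.01 after removal of the GC trend. NOP58, a scaffold of box C/D particles, was the 1 higher in replicate 2, with 118 TPM in replicate 1 and 231 in replicate 2. Its log2 ratio was 0.96, and 0.68 after removal of the GC trend. All 8 matched assembly factors were detected, led by RUVBL2 at 163 ± 26.5 TPM, RUVBL1 at 144 ± 8.34 and PIH1D1 at 95.6 ± 8.81. Of these, 3 were higher in replicate 2 and 3 in replicate 1 by the test, again near the 66.7% of genes at such depth. The 3 higher in replicate 2 moved most with the GC trend removed, RPAP3 from a log2 ratio of 1.05 to 0.17, ZNHIT6 from 0.62 to -0.062 and NUFIP1 from 0.21 to -0.43.

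Factors of nonsense-mediated decay, the pathway known to clear many spliced host RNAs, were present as well. All 14 matched genes were detected, led by RNPS1 at 546 ± 4.20 TPM, CASC3 at 129 ± 2.40 and EIF4A3 at 85.6 ± 6.34 (SD, n = 2). By the test, 3 were higher in replicate 2 and 7 in replicate 1, where 42.2% of all genes and 66.7% of those that reached 600 summed counts passed. The median log2 ratio went from -0.13 to -0.01 with the GC trend removed. Of the 7, RNPS1 went from -0.14 to 0.0008, SMG5 from -0.13 to 0.07 and SMG6 from -0.20 to -0.01. SMG9 went from -0.22 to -0.02 and CASC3 from -0.14 to -0.05, while EIF4A3 went from -0.23 to -0.22. The central helicase UPF1, with a log2 ratio of -0.30 that became -0.09, had 40.5 TPM in replicate 1 and 36.0 TPM in replicate 2. UPF2 had 17.2 and 37.0 TPM, and UPF3B had 31.95 and 62.6 TPM. Both were higher in replicate 2, with log2 ratios of 0.98 and 0.96 that became 0.65 and 0.59 after removal of the GC trend. SMG1 was also higher in replicate 2, with a log2 ratio of 0.39 that became 0.13. The part of these differences in the levels of the hosts was not tested.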

How the data were processed

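HEK293T poly(A)+ RNA of 2 libraries was sequenced by the authors on a HiSeq1500. The submitters' processing notes name Trimmomatic 0.36, STAR 2.6.1c and RSEM 1.3.1 with hg19; the methods name featureCounts instead, but the tables have the columns of RSEM. The deposited tables give expected counts (multi-mapped reads shared among genes), and TPM and FPKM values computed by the authors' quantifier. The deposited credibility bounds, a signal in TPM units, posterior SD and lengths were also read; the level of the bounds is not given. For the molecule the labels say genomic DNA, but their protocol describes RNA. The pooled table was not used.

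GENCODE on GRCh37 gave symbols, biotypes, GC content and positions; 96.1% of identifiers matched. RefSeq, on GRCh38, gave promoters and the snoRNAs neighbouring each host. Expected counts were rounded for an exact two-sided binomial test (scipy 1.17.1), conditional on the summed count, with TMM sizes from edgeR 4.0.16 and Benjamini-Hochberg adjustment over genes that reached 10 summed counts. Log2 ratios used a pseudocount of 0.5. The GC trend was the median in 50 classes of genes that reached 100 summed counts. P-values measure only counting error between 2 libraries. A gene was detected if it reached 1 TPM in each library. The members, lists and motifs were chosen with earlier results of these data known. All members were named, the 3 highest genes of each list, and undetected ones. The 6 snoRNAs, all under 10 counts, were named after their values were seen. So were SNHG10, NOP56, NOP58, RPAP3, ZNHIT6, NUFIP1, UPF1, UPF2, UPF3B, SMG1, SMG5, SMG6 and SMG9. Unmatched were SNHG4, ZNHIT3, RBM8A and NEFL. Alternatives covered thresholds, units, scaling (library totals, DESeq2 1.42.0 size factors), the GC trend and leaving out a replicate.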

Additional observations from a re-analysis of the deposited data

How the results depend on the processing

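The count of 10 detected hosts held at every TPM threshold from 0.1 to 10, in CPM and FPKM, by the lower credibility bound and without either replicate. The share of TPM was 0.0923%, and 0.0629% as a share of expected counts or 0.114% of a total without nuclear copies of mitochondrial genes; without 1 replicate it ranged from 0.0867% to 0.0979%. The number of hosts that differed between the libraries was 4 under TMM, library totals and DESeq2 size factors. Under library totals SNHG1 passed and SNHG16 did not, so these 4 were not the same genes as under TMM. The number was 3 with the GC trend removed, and 0 with an added limit of 1 on the absolute log2 ratio. The median log2 ratio of the hosts was 0.02, and -0.10 with the GC trend removed or 0.12 as a TPM ratio. With the GC trend removed, SNHG1 (-0.080), SNHG6 (-0.29) and SNHG7 (0.086) changed sign. Of these, SNHG1 and SNHG7 passed the threshold neither under TMM nor with the GC trend removed. The cause of these shifts was not tested. TATAA in place of TATAAA, added after seeing the data, raised the count of windows from 1 to 5. The test needs both libraries, so it was not run without 1 of them. No paired analysis was possible because there was only 1 group. Depth limits the lowest counts most: counting error was 5.95% for SNHG8 in replicate 1 and 1.18% for SNHG16 in replicate 2.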
